A study of Mus musculus with 12 samples.

Results

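High-fat feeding was compared with standard feeding in 6 of the 12 libraries of the series, 3 per diet, all prepared from adipose stromal cells of mice and all of the genotype p21+/mcherry. The libraries were chosen by their labels: replicates 1, 2 and 3 were fed the Standard Diet (SD) and replicates 15, 17 and 20 the High Fat Diet (HFD). In p21+/mcherry mice 1 allele of the p21 gene, Cdkn1a, carries mCherry, a red fluorescent protein, and this allele was present in both diet groups, so no group with 2 unmodified p21 alleles entered the comparison. The series' design text calls the high-fat control genotype p21+/-, whereas the labels of these libraries give p21+/mcherry, which was followed. The labels give no age, sex, fat depot, time on diet or batch. They do not say that each library came from a separate animal, so the p-values below measure the spread between samples, which may in part be technical. The other 6 libraries, from high-fat-fed mice that carry Tert (p21+/mcherry-Tert) or TertCi (p21+/mcherry-TertCi) at p21, contributed only to the estimate of the spread.

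Stromal cells of fat are usually prepared as the stromal vascular fraction, which is what remains of adipose tissue once the lipid-filled adipocytes are removed. It holds adipocyte precursors and fibroblasts, endothelial and mural cells of the vessels, macrophages and other leukocytes. In obese adipose tissue macrophages are known to accumulate, to take up lipid and to switch on a lysosomal and lipid-handling programme marked by Trem2, while fibroblasts deposit collagen. RNA was measured in bulk, so fewer cells of a type and less RNA per cell cannot be told apart in any of the results below.

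The 6 libraries held 17111618 to 19486965 counts and 17719 to 19147 genes with a count. Replicates of the same diet correlated at a Spearman coefficient between 0.870 and 0.984 across genes, and libraries of different diets between 0.812 and 0.933. The smallest chi-square per degree of freedom between replicates was 20.5, so no library repeated another. On the first principal component of log2 CPM (counts scaled to a common library size), which held 51.5% of the variance, high-fat replicates 17 and 20 lay at 134 and 128 and high-fat replicate 15 lay at -55.9, within the range of the standard-diet libraries (-80.0 to -46.5). High-fat replicate 15 correlated better with standard-diet replicate 1 (Spearman 0.933) than with high-fat replicates 17 (0.885) and 20 (0.884). Counts of called genes are given with and without it, and list medians without it for some of the lists whose median moved.

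The labelled tissue was checked against marker genes. Stromal (Pdgfra, Dcn), endothelial (Pecam1, Cdh5) and macrophage (Csf1r, Adgre1) genes were detected in all 6 libraries, and Adipoq, a defining product of mature adipocytes, was at 0.552 to 4.79 CPM. The libraries also held transcripts of epithelia that belong to no adipose cell type, at levels that differed between libraries. Epcam, an epithelial adhesion molecule, stood at 344, 543 and 331 CPM in the standard-diet libraries and at 289, 11.1 and 36.9 CPM in high-fat replicates 15, 17 and 20. High-fat replicates 17 and 20 were thus low in Epcam, and replicate 15 was nearer the standard-diet libraries but below all of them. Over the epithelial list of 16 genes, all tested, the summed level was 1704 to 2787 CPM on the standard diet. It was 2056 CPM in high-fat replicate 15, within that range, and 80.6 and 106 CPM in replicates 17 and 20. In that list 5 genes lay lower and 0 higher with no overlap, against 11.6% and 13.9% of all genes. Its median log2 fold change was -1.80, and -4.77 without high-fat replicate 15. Crisp1, a secreted protein of the epididymis, was at 8859, 0.242 and 14780 CPM on the standard diet and at 2396, 641 and 0.239 CPM on the high-fat diet. Akr1b7, an aldo-keto reductase abundant in the vas deferens, was at 7826, 0.339 and 38013 CPM and at 970, 1347 and 0 CPM in the same order. Both were spread over the diets without order. The sign of their fitted difference turned when an epithelial or epididymal score, the mean log2 CPM of that list, was added to the model. Both genes are members of the epididymal list, so the turn with the epididymal score says nothing on their order over the diets. The mean log2 CPM of the epithelial list was 5.00 to 5.98 on the standard diet and 5.21, 0.709 and 0.267 in high-fat replicates 15, 17 and 20. A fit with the epithelial score can therefore take out diet differences along with epithelial ones. The part of epithelial content in the results that follow was not tested, and the fits that carried such a score cannot give it.

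**Figure D1:**
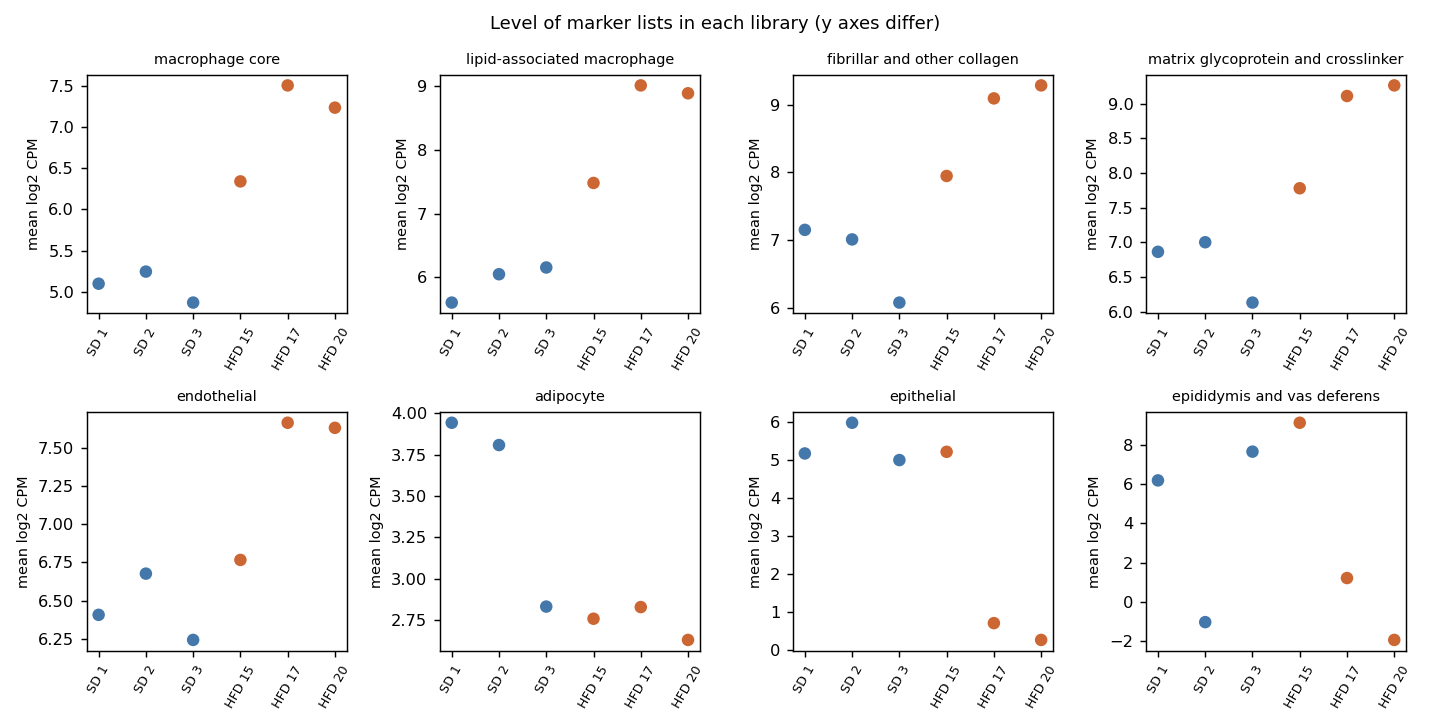
Mean log2 CPM of the tested members of 8 gene lists (y axes, which differ between panels) in each of the 6 libraries (x axes; blue, standard diet; orange, high-fat diet). The macrophage and matrix lists are higher in all 3 high-fat libraries and least so in replicate 15, whose epithelial and epididymal levels stand apart from those of replicates 17 and 20.

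Between the diets, 8 of 16713 genes tested (0.0479%) passed an adjusted p of 0.05 in edgeR's quasi-likelihood test, 7 higher (0.0419%) and 1 lower (0.00598%) after high-fat feeding. The gene that fell was Cfd, which encodes adipsin, complement factor D, a serine protease that adipose tissue secretes and that starts the alternative complement pathway. Among those that rose were Inhbb, the beta B subunit of activin B and inhibin B, and Slc7a8, a transporter of neutral amino acids. Alcam, an adhesion molecule of the immunoglobulin family, Sh2d5, which encodes an SH2-domain adaptor, Tnfaip8l2, which encodes the immune regulator TIPE2, and 4930404N11Rik, a gene of no described function here, also rose. In RefSeq's GRCm38.p6 table, 5 of these 7 named genes had an upstream sequence. The 250 bases before the RefSeq start site are shown for the gene that fell and for the growth factor and the transporter that rose, so that the regulatory stretches next to the called genes can be seen. Capitals mark matches on either strand to 1 of 6 short motifs that were searched. They were TATAAA (the TATA box), GGGCGG (the GC box), CACGTG (an E-box), TGANTCA (the AP-1 site), GAGGAA (the core of the PU.1 site) and TTGCGCAA (a C/EBP site). The windows are chr10:79890603-79890852 on the plus strand for Cfd, chr1:119422249-119422498 on the minus strand for Inhbb and chr14:54781887-54782136 on the minus strand for Slc7a8. RefSeq and GENCODE place the start site of Slc7a8 differently, so part of its window lies inside the gene span given below.
Cfd: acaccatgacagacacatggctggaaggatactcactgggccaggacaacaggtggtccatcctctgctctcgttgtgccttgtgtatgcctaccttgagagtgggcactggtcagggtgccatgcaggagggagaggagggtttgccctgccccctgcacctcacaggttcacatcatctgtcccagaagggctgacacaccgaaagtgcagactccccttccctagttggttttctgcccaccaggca
Inhbb: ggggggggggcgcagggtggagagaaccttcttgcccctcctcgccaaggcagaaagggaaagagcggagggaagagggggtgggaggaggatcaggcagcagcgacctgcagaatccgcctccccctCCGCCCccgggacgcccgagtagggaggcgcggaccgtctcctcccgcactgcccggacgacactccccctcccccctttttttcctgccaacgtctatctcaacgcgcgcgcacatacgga
Slc7a8: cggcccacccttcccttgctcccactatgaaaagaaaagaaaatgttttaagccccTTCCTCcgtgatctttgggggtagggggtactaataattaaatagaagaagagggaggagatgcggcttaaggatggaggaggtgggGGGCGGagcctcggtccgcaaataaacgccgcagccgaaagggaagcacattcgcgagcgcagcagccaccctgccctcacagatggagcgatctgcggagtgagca

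Cfd held none of the 6, Inhbb held 1 match to the GC box and Slc7a8 held 1 match each to the GC box and the PU.1 core. The GC box letters occur in 32.7% and the PU.1 core letters in 23.3% of the 32851 upstream sequences of this length. A match here is a description of letters and no evidence that a factor binds.

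Cfd (chromosome 10, 79890853 to 79892655, plus strand, GRCm38) was at 19.2, 15.8 and 10.1 CPM in the standard-diet libraries and at 0.387, 0.421 and 0.418 CPM in the high-fat libraries, from 7 counts in each of the latter. The 3 high-fat libraries were all low and almost equal, and the groups did not overlap. The log2 fold change was -5.18 ± 0.537 (SE; edgeR adjusted p = 0.0219), a 36.2-fold lower level on the high-fat diet. Its direction was the same in all 16 alternatives, where the log2 fold change ran from -5.41 to -4.89.

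Inhbb (chromosome 1, 119415465 to 119422248, minus strand) was at 45.9, 43.5 and 48.4 CPM on the standard diet and at 230, 313 and 311 CPM on the high-fat diet. High-fat replicate 15 was the lowest of the 3 but stood far above every standard-diet library. The log2 fold change was 2.63 ± 0.350 (SE; edgeR adjusted p = 0.0446), a 6.19-fold rise. Inhba, which encodes the beta A subunit of activin A, was at 14.6, 6.64 and 2.72 CPM and at 19.1, 81.4 and 108 CPM, with a log2 fold change of 3.12 ± 0.782 that was not called (SE; edgeR adjusted p = 0.0756). Fst, the secreted antagonist of activins, overlapped between the diets (28.7 to 105 CPM and 32.5 to 92.8 CPM), and its log2 fold change of -0.01 ± 0.588 (SE; edgeR adjusted p = 0.995) changed sign in 5 of the 16 alternatives. Of the 21 genes of the TGF-beta and activin list, Inhbb alone was called. With no overlap, 6 lay higher and 2 lower, against 13.9% and 11.6% of all genes. The median log2 fold change was 0.64, against -0.08 over all genes tested. Without high-fat replicate 15 edgeR called 7 of the list higher, against 8.76% of all genes. Tgfbr2, a TGF-beta receptor, was at 154, 177 and 78.9 CPM on the standard diet and at 172, 431 and 452 CPM on the high-fat diet, with overlapping groups.

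Slc7a8 (chromosome 14, 54722209 to 54781946, minus strand) was at 22.0, 27.9 and 27.3 CPM on the standard diet and at 88.5, 108 and 97.7 CPM on the high-fat diet. The high-fat libraries lay close together, replicate 15 included. The log2 fold change was 1.93 ± 0.242 (SE; edgeR adjusted p = 0.0446). Slc3a2, the heavy chain shared by several transporters of the Slc7 family, was at 278, 278 and 337 CPM and at 557, 602 and 522 CPM, with a log2 fold change of 0.91 ± 0.179 that was not called (SE; edgeR adjusted p = 0.0659). Of 18 amino acid transporter genes, 1 was called higher and 0 lower, and the median log2 fold change was 0.87. With no overlap, 6 lay higher and 0 lower, against 13.9% and 11.6% of all genes. Without high-fat replicate 15 edgeR called 7 higher, against 8.76% of all genes. Slc1a5, a glutamine transporter, overlapped between the diets (91.5 to 233 CPM and 221 to 247 CPM).

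Alcam (chromosome 16, 52248996 to 52454074, minus strand) was at 17.8, 25.7 and 19.8 CPM on the standard diet and at 56.9, 71.1 and 73.3 CPM on the high-fat diet (log2 fold change 1.67 ± 0.229, SE; edgeR adjusted p = 0.0446). Sh2d5 (chromosome 4, 138250403 to 138261332, plus strand) was at 1.93, 1.26 and 1.97 CPM and at 19.7, 16.1 and 12.5 CPM, so that here replicate 15 was the highest high-fat library (log2 fold change 3.22 ± 0.444, SE; edgeR adjusted p = 0.0446). Its exons overlap those of Kif17 on the same strand, and Kif17 itself was low and overlapped between the diets (0.630 to 3.51 CPM and 0.478 to 3.37 CPM). Tnfaip8l2 (chromosome 3, 95139521 to 95142360, minus strand) was at 1.17, 1.07 and 1.62 CPM and at 5.91, 15.03 and 16.1 CPM (log2 fold change 3.26 ± 0.455, SE; edgeR adjusted p = 0.0446). For these 3 genes each high-fat library exceeded each standard-diet library.

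4930404N11Rik (chromosome 10, 81363067 to 81365816, minus strand) was at 9.83, 7.71 and 9.44 CPM on the standard diet and at 36.2, 58.3 and 59.7 CPM on the high-fat diet (log2 fold change 2.51 ± 0.288, SE; edgeR adjusted p = 0.0285). Its exons overlap those of Mfsd12, a gene on the opposite strand that encodes a lysosomal and melanosomal transporter. Mfsd12 was at 5.24, 3.73 and 2.78 CPM and at 15.5, 28.9 and 33.7 CPM, with a log2 fold change of 2.73 ± 0.401 just outside the threshold (SE; edgeR adjusted p = 0.0562). The use of strand in the counting is not stated, so reads of the overlapping gene pair cannot be told apart. The 7 named called genes kept their direction in all 16 alternatives, and each had an adjusted p under 0.05 in 8 to 10 of them. Their highest adjusted p was 0.218 to 0.261, reached where a high-fat replicate other than replicate 15 was left out.

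**Figure D2:**
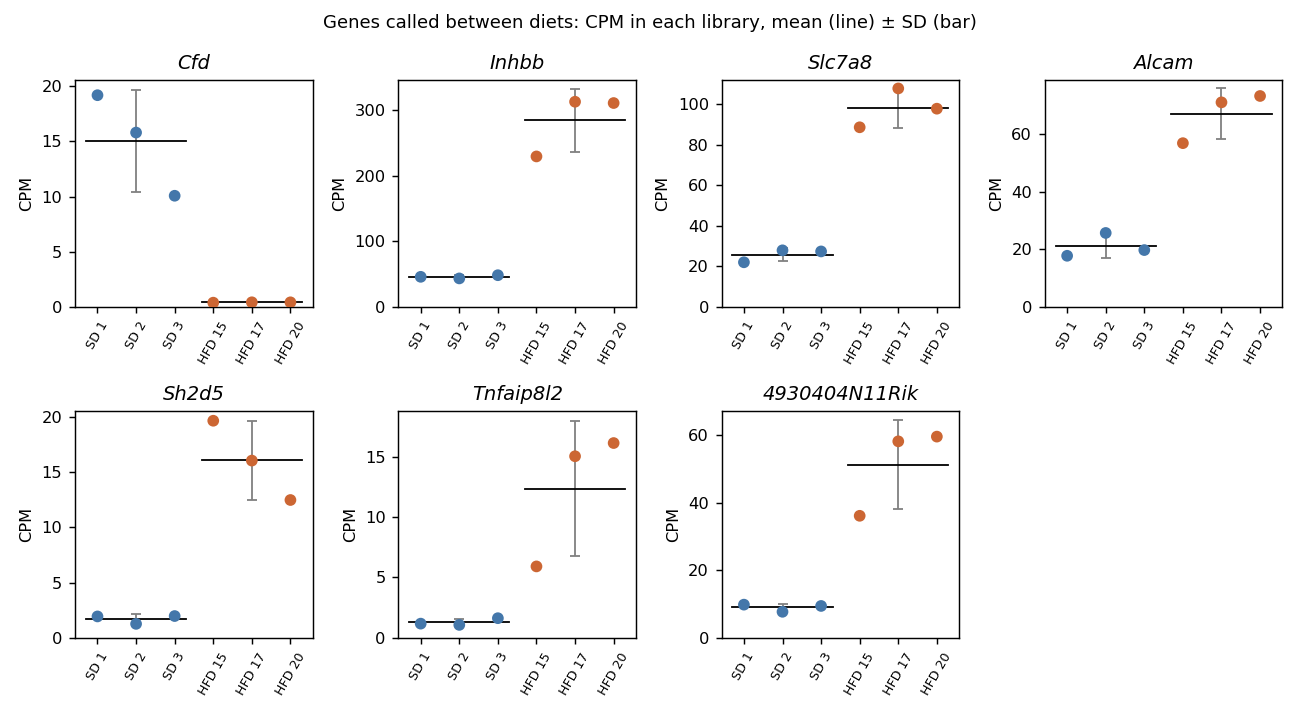
CPM (y axes, from 0) of the 7 named genes that passed the edgeR threshold, in each of the 6 libraries (blue, standard diet; orange, high-fat diet), with the mean as a line and the standard deviation as a bar (n = 3). In every panel the 2 diets are separated, and Cfd is the gene that is lower on the high-fat diet.

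The number of called genes depended on single libraries and on the tool. Without high-fat replicate 15, edgeR called 2082 of 17069 genes, 1495 higher (8.76%) and 587 lower (3.44%), although the group then held 2 libraries, both of them low in epithelial transcripts. Without standard-diet replicate 1 or 2, or high-fat replicate 17 or 20, edgeR called 0 genes, with 2140 to 3634 genes at an unadjusted p under 0.05, and without standard-diet replicate 3 it called 48. DESeq2 called 1269 genes higher and 708 lower. Over all genes tested, the diets did not overlap for 4261 genes (25.5%), 2328 of them higher (13.9%) and 1933 lower (11.6%) after high-fat feeding. These shares are the background for the lists below, none of which was tested as a list, and DESeq2 called 7.57% of the same genes higher and 4.24% lower.

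**Figure D3:**
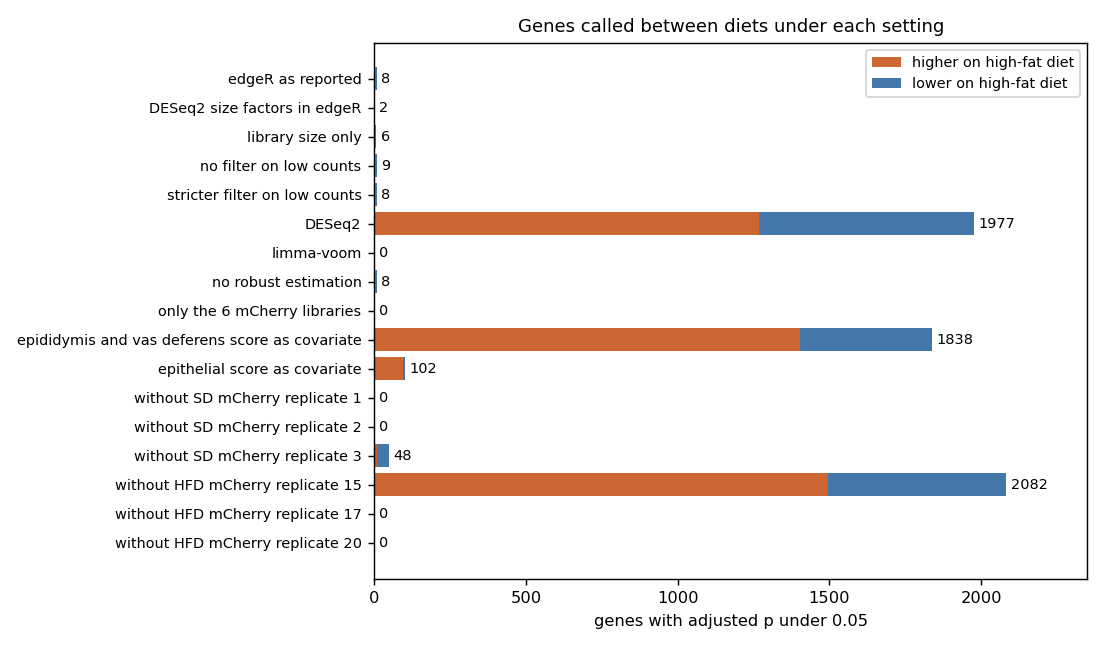
Number of genes with an adjusted p under 0.05 between the diets (x axis, from 0) in the reported edgeR fit and in 16 alternatives (y axis), stacked by direction. The count was 8 as reported, 2082 without high-fat replicate 15, 1977 with DESeq2 and 0 in several of the fits that left out another library.

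Of the 20 genes of macrophages in the core list, none was called by edgeR with all libraries. All 20 genes of the macrophage core list had a positive log2 fold change, with a median of 2.19, and 17 lay higher with no overlap, against 13.9% of all genes. DESeq2 called 17 of the 20 higher, and edgeR called 15 without high-fat replicate 15, against 7.57% and 8.76% of all genes. With the epithelial score in the model, where 0.574% of all genes were called higher and 0.0359% lower, it called 6, and the median was 1.35. Csf1r, the receptor for the macrophage growth factor CSF1, was at 60.8, 67.6 and 20.7 CPM on the standard diet and at 124, 307 and 283 CPM on the high-fat diet. Adgre1, which encodes the F4/80 antigen, was at 18.1, 17.6 and 11.2 CPM and at 53.7, 186 and 160 CPM (log2 fold change 3.09 ± 0.745, SE; edgeR adjusted p = 0.0729). For both genes replicate 15 lay between the standard-diet libraries and the other high-fat libraries. Lyz2, C1qb and Cd14, which encode lysozyme, a complement C1q chain and the lipopolysaccharide co-receptor, had log2 fold changes of 2.26 ± 0.608, 2.45 ± 0.493 and 1.22 ± 0.298 (SE).

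Lipid-associated macrophage genes had the highest median of the 37 lists, 2.73. Of the 20, 17 lay higher without overlap and DESeq2 called 15 higher, against 13.9% and 7.57% of all genes. None was called by edgeR with all libraries and 12 were called without high-fat replicate 15, against 8.76% of all genes. Only 2 were called with the epithelial score, against 0.574% of all genes, and the median was 1.70. Trem2, the lipid-sensing receptor that marks these cells, was at 10.3, 13.6 and 22.5 CPM on the standard diet and at 63.1, 253 and 226 CPM on the high-fat diet (log2 fold change 3.55 ± 0.996, SE; edgeR adjusted p = 0.0894). Itgax, which encodes CD11c, was at 6.57, 8.39 and 10.7 CPM and at 45.4, 301 and 326 CPM, a 26.2-fold difference in the fit. Gpnmb, a lysosomal glycoprotein of lipid-laden macrophages, was at 19.0, 25.8 and 131 CPM and at 288, 1577 and 1565 CPM. High-fat replicate 15 reached 15.1% to 24.9% of the level of replicate 17 in these 3 genes. Mmp12, a macrophage elastase, and the lysosomal protease Ctsb had log2 fold changes of 4.75 ± 1.70 and 2.23 ± 0.460 (SE), and the protease Ctsd was at 520 to 926 CPM and at 1060 to 2630 CPM. Apoe, a lipid carrier, was nearly level, at 2141 to 2746 CPM and 2823 to 3105 CPM. Spp1, which encodes osteopontin and is also made outside macrophages, was the member with a negative value: it was at 12.4, 52.0 and 258 CPM on the standard diet and at 34.4, 62.2 and 63.1 CPM on the high-fat diet. The sign of Spp1 turned without standard-diet replicate 3, where it was 0.72.

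**Figure D4:**
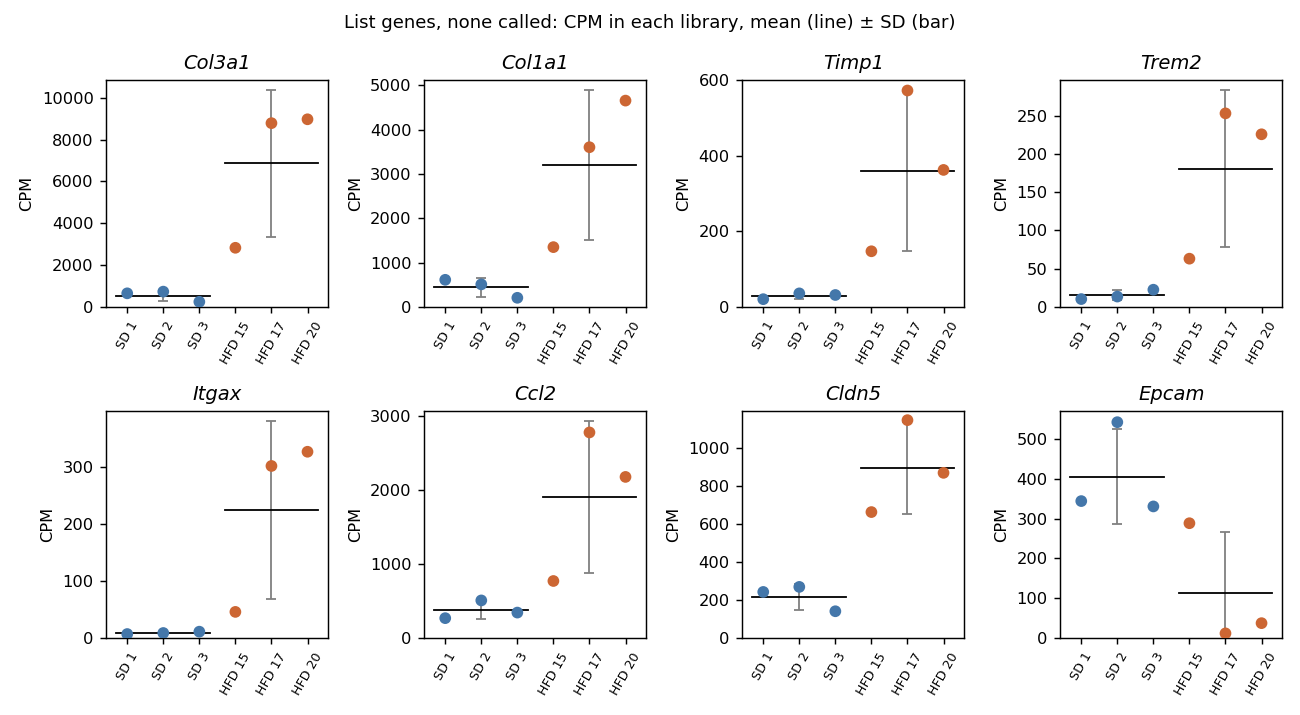
CPM (y axes, from 0) of 8 list genes, none called by edgeR, in each of the 6 libraries (blue, standard diet; orange, high-fat diet), with the mean as a line and the standard deviation as a bar (n = 3). The matrix, macrophage, chemokine and endothelial genes are lowest in replicate 15 among the high-fat libraries, and Epcam is highest there.

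No gene of the resident macrophage, MHC class II or monocyte and dendritic cell lists was called by edgeR with all libraries. Of 15 resident macrophage genes, 12 were positive and 6 lay higher with no overlap, against 13.9% of all genes. The median log2 fold change was 1.24, which was 1.91 without standard-diet replicate 2. With the epithelial score in the model the medians of the 3 lists, in that order, were 0.51, 0.39 and 0.38. Without high-fat replicate 15 edgeR called 3, 0 and 3 of their genes higher, against 8.76% of all genes. Mrc1, which encodes the mannose receptor CD206, was at 50.4, 83.4 and 32.8 CPM on the standard diet and at 97.2, 200 and 172 CPM on the high-fat diet. Stab1, a scavenger receptor, overlapped between the diets (46.1 to 98.4 CPM and 94.6 to 238 CPM). Retnla and Gas6 overlapped as well and were nearly level, with log2 fold changes of -0.06 ± 0.888 and -0.02 ± 0.383 (SE). All 10 MHC class II genes were positive with a median of 1.07, and 3 lay higher with no overlap, against 13.9% of all genes. H2-Aa was at 348 to 651 CPM and at 673 to 1530 CPM, whereas H2-Ab1 and the invariant chain Cd74 overlapped. The 15 monocyte and dendritic cell genes had a median of 1.02, and 12 were positive. With no overlap 6 lay higher and 0 lower, against 13.9% and 11.6% of all genes. Ccr7, a homing receptor of dendritic cells, and Irf8, a factor of their development, both overlapped between the diets. Plac8 overlapped too, at 76.5, 4.32 and 476 CPM and at 50.6, 25.4 and 5.49 CPM (log2 fold change -2.77 ± 1.76, SE).

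No chemokine, cytokine or interferon-stimulated gene of the lists was called by edgeR with all libraries. Of 18 chemokine genes tested, 15 were positive and 9 lay higher with no overlap, against 13.9% of all genes. Their median log2 fold change was 1.30. Ccl2, which draws monocytes, was at 266, 506 and 341 CPM on the standard diet and at 769, 2781 and 2178 CPM on the high-fat diet (log2 fold change 2.36 ± 0.563, SE; edgeR adjusted p = 0.0727). Cxcl1 and Cxcl2, which draw neutrophils, had log2 fold changes of 2.40 ± 0.550 and 1.89 ± 0.469 (SE). Cxcl3, a related chemokine named for the size of its change, was at 13.6, 17.5 and 20.6 CPM and at 127, 584 and 447 CPM (log2 fold change 4.48 ± 0.750, SE; edgeR adjusted p = 0.0652). Among 18 cytokine and inflammasome genes, 17 were positive and the median was 1.80. With no overlap 12 lay higher and 1 lower, against 13.9% and 11.6% of all genes. Csf1, the growth factor of macrophages, was at 177, 251 and 206 CPM and at 385, 943 and 1148 CPM. Il6 was at 313, 445 and 482 CPM and at 522, 1801 and 1436 CPM, and Tnf at 50.7, 55.9 and 19.0 CPM and at 73.8, 193 and 188 CPM. Il1b overlapped, since replicate 15 (248 CPM) lay within the standard-diet range of 192 to 275 CPM. All 18 interferon-stimulated genes were positive, with a median of 1.23 and 13 higher without overlap, against 13.9% of all genes. Rsad2, the antiviral protein viperin, was at 53.1, 35.6 and 39.2 CPM and at 165, 481 and 203 CPM, so that replicate 17 was the highest, and Ifit1 and Isg15 had log2 fold changes of 2.43 ± 0.664 and 1.08 ± 0.409 (SE).

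Without high-fat replicate 15, edgeR called 8 of 19 chemokine, 13 of 18 cytokine and 8 of 18 interferon-stimulated genes higher, against 8.76% of all genes. With the epithelial score it called 1, 2 and 1 of them, against 0.574% of all genes, and the medians were 0.77, 1.12 and 0.67. All 22 lysosome genes were positive with a median of 0.56, and 10 lay higher with no overlap, against 13.9% of all genes. EdgeR called none of them with all libraries and 7 without high-fat replicate 15. Psap, the precursor of the saposins that activate sphingolipid breakdown, was at 1218, 1324 and 1904 CPM on the standard diet and at 2084, 5696 and 5384 CPM on the high-fat diet. Lamp1, a membrane protein of lysosomes, had a log2 fold change of 0.51 ± 0.229 (SE), and Npc2, a cholesterol-binding lysosomal protein also secreted in the epididymis, overlapped, at 1037, 318 and 445 CPM and at 1437, 737 and 628 CPM.

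No gene of the 3 extracellular matrix lists was called by edgeR with all libraries. Among 20 collagen genes, 19 were positive and the median log2 fold change was 2.44. With no overlap 16 lay higher and DESeq2 called 16 higher, against 13.9% and 7.57% of all genes. Col3a1, a fibrillar collagen, was at 651, 732 and 245 CPM on the standard diet and at 2829, 8790 and 8975 CPM on the high-fat diet (log2 fold change 3.66 ± 0.733, SE; edgeR adjusted p = 0.0659). Col1a1, a chain of type I collagen, was at 612, 509 and 206 CPM and at 1348, 3601 and 4652 CPM, and Col1a2 had a log2 fold change of 2.38 ± 0.514 (SE). Each high-fat library exceeded each standard-diet library in these genes, with replicate 15 the lowest of the high-fat libraries. All 21 matrix glycoprotein and crosslinker genes were positive, with a median of 2.32, and 16 lay higher with no overlap, against 13.9% of all genes. Sparc, a collagen-binding glycoprotein, was at 1172, 1208 and 998 CPM and at 2955, 6982 and 6927 CPM. Thbs1, thrombospondin 1, and Bgn, the proteoglycan biglycan, had log2 fold changes of 2.10 ± 0.505 and 2.06 ± 0.450 (SE).

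Matrix proteases and their inhibitors had a median of 2.58 over 19 genes, of which 18 were positive. With no overlap 11 lay higher and 1 lower, against 13.9% and 11.6% of all genes. Timp1, an inhibitor of matrix metalloproteinases, was at 20.5, 35.8 and 31.6 CPM on the standard diet and at 147, 572 and 362 CPM on the high-fat diet (log2 fold change 3.62 ± 0.640, SE; edgeR adjusted p = 0.0652). Timp2, a related inhibitor, overlapped between the diets (698 to 1272 CPM and 904 to 3280 CPM). Without high-fat replicate 15, edgeR called 15 of 20 collagen, 19 of 21 glycoprotein and crosslinker and 13 of 19 protease and inhibitor genes higher. The share over all genes was 8.76%. With the epithelial score in the model it called 4, 4 and 4 of them higher, against 0.574% of all genes. The medians were then 1.72, 1.46 and 1.63.

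Of 20 adipose progenitor genes, none was called by edgeR with all libraries. Without high-fat replicate 15, 9 were called higher and 1 lower, against 8.76% and 3.44% of all genes. In all, 13 were positive, and 6 lay higher and 1 lower with no overlap, against 13.9% and 11.6% of all genes. The median log2 fold change was 0.84, which was 0.34 with the epithelial score in the model. Pdgfra, the receptor that marks adipose fibroblasts and precursors, was at 137, 103 and 84.5 CPM on the standard diet and at 198, 232 and 232 CPM on the high-fat diet (log2 fold change 1.03 ± 0.215, SE; edgeR adjusted p = 0.0659). Dpp4, a marker of an early precursor state, was at 97.5, 111 and 50.5 CPM and at 67.1, 72.2 and 59.1 CPM, with overlapping groups. Icam1 was at 664 to 950 CPM and at 1115 to 2998 CPM, and Cd34 and the proteoglycan gene Dcn overlapped.

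The 18 adipocyte genes, Cfd included, had 7 positive values and a median of -0.89, which was -0.40 without standard-diet replicate 1. With no overlap, 4 lay lower and 3 higher, against 11.6% and 13.9% of all genes. The lower genes were Cfd, Car3, Cidea and Retn. Car3 was at 47.9, 47.0 and 15.2 CPM on the standard diet and at 4.36, 6.07 and 4.42 CPM on the high-fat diet. Its log2 fold change was -2.89 ± 0.503 (SE; edgeR adjusted p = 0.0652). Cidea and Retn were at lower levels, with log2 fold changes of -2.64 ± 1.24 and -2.75 ± 1.00 (SE). Cfd was the member called, and without high-fat replicate 15 edgeR called 2 lower, against 3.44% of all genes. The 3 higher genes were Fabp4, a fatty acid carrier also made by macrophages and endothelium, Pparg, the master factor of adipogenesis, and Lep, the hormone leptin. Fabp4 was at 335, 446 and 207 CPM on the standard diet and at 878, 1686 and 983 CPM on the high-fat diet. Pparg was at 10.2, 15.7 and 3.42 CPM and at 19.9, 35.1 and 38.2 CPM. Lep was low in all libraries, at 1.78, 1.55 and 1.27 CPM and at 4.31, 4.51 and 4.48 CPM (log2 fold change 1.52 ± 0.633, SE; edgeR adjusted p = 0.183), and its high-fat libraries were nearly equal, as they were for Cfd. Adipoq overlapped, with a log2 fold change of -1.21 ± 0.718 (SE), and Acsl1, an acyl-CoA synthetase also found in other tissues, was at 104 to 332 CPM and at 29.5 to 198 CPM.

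Of 16 genes of de novo lipogenesis, none was called by edgeR, 15 were negative and the median log2 fold change was -0.72. With no overlap 1 lay lower, against 11.6% of all genes. The median was -1.44 without high-fat replicate 15 and -0.42 without standard-diet replicate 1. In the former fit 1 gene was called lower, against 3.44% of all genes. Fasn, fatty acid synthase, was at 540, 398 and 168 CPM on the standard diet and at 260, 79.5 and 98.2 CPM on the high-fat diet. Scd2, a fatty acid desaturase, was at 794, 611 and 447 CPM and at 797, 87.8 and 77.6 CPM, and Fads1 at 233 to 539 CPM and at 84.5 to 266 CPM. High-fat replicate 15 lay at or near the standard-diet range in these genes. With the epithelial score in the model the median was -0.30, and the part of epithelial content was not tested. The 16 genes of cholesterol efflux and LXR signalling had a median of 0.05, which was -0.17 when scaled by library size only and 0.12 without high-fat replicate 15. Abca1, the cholesterol exporter, was at 220, 219 and 178 CPM and at 306, 461 and 406 CPM (log2 fold change 0.93 ± 0.286, SE; edgeR adjusted p = 0.106), while Hmgcs1 and Srebf1, of sterol and fatty acid synthesis, overlapped.

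Of 18 endothelial genes, none was called by edgeR with all libraries. Without high-fat replicate 15, 5 were called higher, against 8.76% of all genes. The log2 fold change was positive in 17, with a median of 1.00, and 9 lay higher with no overlap, against 13.9% of all genes. The median was 0.40 with the epithelial score. Cldn5, a tight junction protein of endothelium, was at 242, 268 and 140 CPM on the standard diet and at 663, 1148 and 870 CPM on the high-fat diet (log2 fold change 2.04 ± 0.505, SE; edgeR adjusted p = 0.0738). Cdh5, VE-cadherin, was at 132 to 190 CPM and at 337 to 635 CPM, and Pecam1 at 176 to 271 CPM and at 300 to 571 CPM. The pericyte and smooth muscle list was split, with 5 of 15 genes positive and a median of -2.24. Its contractile members were spread widely on the standard diet: Tagln was at 2003, 1121 and 6606 CPM there and at 649, 915 and 497 CPM on the high-fat diet. Myh11 and Mylk, a myosin and its kinase, overlapped between the diets, and standard-diet replicate 3, which was also highest in Akr1b7, held the highest level of both. Without that replicate the median of the list was -1.18, and with the epithelial score it was -0.97. None of its genes was called with all libraries.

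Oxidative phosphorylation genes had negative log2 fold changes in 20 of 20 cases, with a median of -0.74 and 14 lower with no overlap, against 11.6% of all genes. None was called by edgeR and DESeq2 called 2. Cox4i1, a subunit of cytochrome c oxidase, was at 335, 429 and 801 CPM on the standard diet and at 322, 260 and 184 CPM on the high-fat diet, and the ATP synthase genes Atp5a1 and Atp5b had log2 fold changes of -0.65 ± 0.253 and -0.59 ± 0.345 (SE). Standard-diet replicate 3 was the highest library in these 3 genes, and without it the median was -0.41. Of 18 genes of endoplasmic reticulum chaperones and the unfolded protein response, none was called by edgeR, 16 were positive and the median was 0.65. With no overlap 8 lay higher, against 13.9% of all genes. Without high-fat replicate 15 the median was 0.36 and 3 genes were called higher, against 8.76% of all genes. Hspa5, the chaperone BiP, was at 2291, 1947 and 2559 CPM and at 3690, 4371 and 5000 CPM (log2 fold change 0.94 ± 0.250, SE; edgeR adjusted p = 0.0816). Calr, calreticulin, was at 648, 539 and 773 CPM and at 1667, 1152 and 1237 CPM, so that replicate 15 was the highest, and Hsp90b1 was at 696 to 727 CPM and at 995 to 1271 CPM.

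Of 19 proliferation genes, none was called by edgeR and 16 were positive with a median of 0.64. With no overlap 10 lay higher, against 13.9% of all genes. The median was 0.26 with the epithelial score. Mki67, the Ki-67 antigen of cycling cells, was at 18.3, 12.5 and 10.2 CPM on the standard diet and at 33.3, 63.3 and 69.9 CPM on the high-fat diet (log2 fold change 2.02 ± 0.538, SE; edgeR adjusted p = 0.0822). Mcm2, a helicase subunit of DNA replication, went the other way and overlapped (18.8 to 19.5 CPM and 12.2 to 19.0 CPM). The 19 p53 targets and cell cycle inhibitors had a median of 0.06, which was -0.11 by library size only and 0.22 without high-fat replicate 15. Cdkn1a, the p21 gene itself, was at 213, 261 and 150 CPM and at 226, 425 and 367 CPM, with overlapping groups. Btg2, an antiproliferative p53 target that is also an immediate early gene, was at 1133, 1172 and 767 CPM and at 697, 391 and 423 CPM (log2 fold change -1.02 ± 0.320, SE; edgeR adjusted p = 0.109). Immediate early and dissociation stress genes had a median of -0.55, with 19 of 20 negative and 3 lower without overlap, Jund among them at 1439 to 3538 CPM and at 1208 to 1408 CPM.

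**Figure D5:**
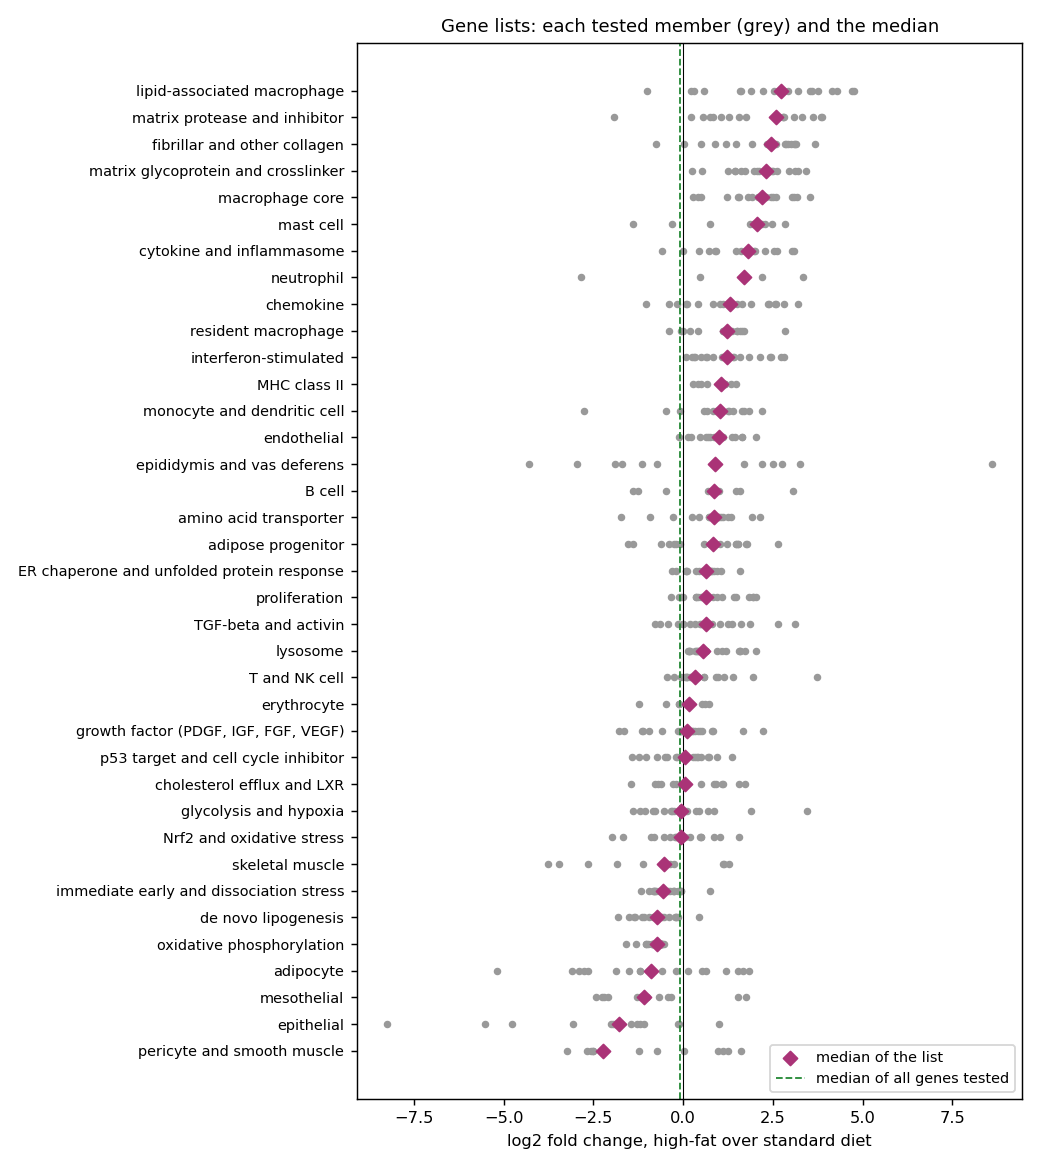
Log2 fold change on the high-fat over the standard diet (x axis) of each tested member (grey points) and of the median (diamonds) for the 37 gene lists (y axis), with the median of all genes tested as a dashed line. The lipid-associated macrophage and matrix lists have the highest medians, 2.32 to 2.73, and the pericyte and smooth muscle list the lowest, -2.24.

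Outside the lists, the naming rule picked the uncalled genes with the widest differences. On the high side, beside Cxcl3, Itgax and Mmp12, were Ereg, Il1rl1, F7, Vsig8 and Serpinb9b. Ereg, the growth factor epiregulin, was at 2.90, 7.42 and 2.72 CPM on the standard diet and at 28.1, 124 and 141 CPM on the high-fat diet (log2 fold change 4.48 ± 0.740, SE; edgeR adjusted p = 0.0652). Il1rl1, the receptor of interleukin 33, was at 5.96, 8.44 and 1.91 CPM and at 42.6, 234 and 215 CPM. F7, coagulation factor VII, was at 0.764, 0.776 and 0.405 CPM and at 9.004, 39.6 and 44.1 CPM. Vsig8, an immunoglobulin-domain protein, and Serpinb9b, a serine protease inhibitor, had log2 fold changes of 4.99 ± 1.45 and 4.56 ± 0.971 (SE). In each of these genes replicate 15 lay above the standard-diet libraries and below the other high-fat libraries.

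On the low side the rule picked Psca, Ivl, Sptssb, Snx31, Sprr1a, Ly6d, Aldh3a1 and Ppp1r1b, several of which are known from stratified or urinary epithelia. Standard-diet replicate 2 was the highest library in all 8. Psca, prostate stem cell antigen, was at 7.18, 267 and 0.695 CPM on the standard diet and at 0.166, 0 and 0 CPM on the high-fat diet. Sprr1a, a cornified envelope protein, was at 31.6, 784 and 10.5 CPM and at 8.23, 2.22 and 1.37 CPM, and Ly6d, a surface protein of squamous epithelia, at 40.0, 265 and 100 CPM and at 5.91, 4.39 and 2.15 CPM. Krt19, an epithelial and mesothelial keratin, was at 344, 694 and 348 CPM and at 187, 33.1 and 40.1 CPM. High-fat replicate 15 stood above the other high-fat libraries in Krt19 and was the closest of them to the standard-diet range. Without standard-diet replicate 2 the log2 fold change of Sprr1a went from -6.12 to -2.41.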

How the data were processed

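Per the labels' protocols, mRNA was purified with poly-T beads, and 12 libraries were used as deposited. For each library the authors deposited whole-number read counts, not normalized, for 24422 features. Subread, SAMtools, featureCounts 1.6.4 and the genome build mm10 are named, per the submitters' processing notes. Which annotation was counted, and whether strand was used, is not given in the sources used here. Coordinates and exon overlaps come from GENCODE M21 and upstream sequences from RefSeq's GRCm38.p6 table, the same assembly as mm10. In all, 23204 of the feature names matched a RefSeq symbol.

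Groups came from the sample titles. Genes were kept by filterByExpr over the 4 groups (16713 genes), scaled by TMM, and fitted with edgeR 4.0.16 in R 4.3.3 by a quasi-likelihood model over all 12 libraries (robust estimation, 8 residual degrees of freedom, no covariate). Tests were 2-sided with Benjamini-Hochberg adjustment over all genes tested, and a gene was called at an adjusted p under 0.05. DESeq2 1.42.0 and limma 3.58.1 (voom) served as alternatives. The fit was tested on simulated counts. CPM is relative to the TMM-scaled library size, and list levels use log2 CPM with a prior count of 1. Fold changes of genes with few counts depend on the prior count of the fit. The limit that a count of 0 allows, taken as 3 counts, was 0.145 to 0.180 CPM and covers counting error only.

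The comparison, the 37 gene lists (639 genes, of which 619 were tested) and the tests were chosen with earlier results of these data known. Genes were named by a rule: every called gene, the 8 highest and 8 lowest uncalled genes with at least 5 CPM on average, no overlap, an unadjusted p under 0.05 and a DESeq2 adjusted p under 0.05, the 3 members of each list with the most reads, and a fixed set of 25 genes. Of the 151 genes that met it, 122 are named or counted under the alternatives. The rest were mostly genes whose sign changed with the alternative and are covered by their list counts, and 1 called gene is not reported here. Mfsd12, Kif17, Car3, Cidea, Retn and the genes of the library checks outside the rule were named after their values were seen.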

Additional observations from a re-analysis of the deposited data

How the results depend on the processing

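No paired analysis was possible because the diet groups share no replicate numbers. Of the alternatives, the fit with the epithelial score was chosen after seeing the data.

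The 8 genes called (7 higher, 1 lower) became 2 with DESeq2 size factors in edgeR (1 higher) and 1977 with DESeq2 (1269 higher, 708 lower). They became 1838 (1402 higher, 436 lower) with the epididymal score and 102 (96 higher, 6 lower) with the epithelial score as a covariate. With no filter on low counts 2 genes were called lower. With limma-voom, and with edgeR on only the 6 mCherry libraries, 0 genes were called in either direction, and 3734 (limma-voom) and 3471 (edgeR) genes had an unadjusted p below 0.05. Leaving out each library in turn gave 0 to 2082 calls, 0 to 1495 higher and 0 to 587 lower, and where an arm was left with 2 libraries the spread was pooled over the 4 groups. The calls without high-fat replicate 15 were 71.8% higher, against 87.5% of the 8 reported, and those without standard-diet replicate 3 were 16.7% higher. All 8 genes called were among those called by DESeq2, with either score and without high-fat replicate 15. Library size alone as the scaling moved the median log2 fold change of all genes from -0.08 to -0.27.

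Of the 122 genes followed through the alternatives, 4 changed sign. Genes that met the naming rule but were not followed were mostly ones whose sign changed. This count therefore understates how often signs turned and is no measure of stability. Akr1b7 went from -4.31 to 4.28 with the epididymal and 3.20 with the epithelial score, and Crisp1 from -2.96 to 2.55 and 1.55. Both genes are members of the list behind the epididymal score. Fst went from -0.01 to 0.0546 with limma-voom, 0.34 with the epididymal and 0.46 with the epithelial score, and to 0.49 and 0.32 without standard-diet replicate 3 and high-fat replicate 15, within -0.37 to 0.49 over the libraries left out. Spp1 reached 0.72 without standard-diet replicate 3, within -1.54 to 0.72 over the libraries left out. The causes were not tested. The common biological coefficient of variation was 0.536, which with 3 libraries per diet limits the differences that can be called.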

Other observations

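Other blood and tissue cell lists were examined only for the make-up of the libraries. Among 18 T and NK cell genes tested, 15 were positive with a median log2 fold change of 0.34 (0.52 without high-fat replicate 15). Against 13.9% of all genes, 2 of the 18 (11.1%) lay higher with no overlap. They were Il7r, the interleukin 7 receptor, at 4.63, 3.20 and 6.43 CPM on the standard diet and 15.2, 81.8 and 91.4 CPM on the high-fat diet, and Thy1, which stromal cells also make, at 79.3 to 102 CPM and 113 to 245 CPM. Defining T cell genes such as Cd3e and Cd8a did not lie apart. Among 11 B cell genes the median was 0.87 (0.40 without standard-diet replicate 3), and Ebf1, which adipose precursors also express, was at 40.0, 46.0 and 24.97 CPM and at 55.3, 141 and 137 CPM, while Cd79a overlapped.

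Mast cell genes had a median of 2.05 over 10 tested members, with 2 higher and 1 lower without overlap, against 13.9% and 11.6% of all genes. The proteases Tpsb2 and Mcpt4, singled out after their values were seen, were at 4.69 to 16.6 CPM and 3.65 to 16.3 CPM on the standard diet. High-fat replicate 15 lay inside that range, at 12.6 and 12.1 CPM, and replicates 17 and 20 were at 82.8 and 62.8 CPM for Tpsb2 and at 66.0 and 47.6 CPM for Mcpt4. Gata2, a factor of mast cells and of other lineages, was lower, at 52.1 to 146 CPM and 23.1 to 42.6 CPM. The 6 neutrophil genes tested had a median of 1.69 at low levels, and 3 lay higher with no overlap, against 13.9% of all genes. Their log2 fold changes ran from -2.86 to 3.34. Csf3r was at 1.68 to 4.23 CPM and 7.18 to 15.6 CPM, while S100a8 overlapped, at 0.873 to 3.65 CPM and 2.53 to 3.46 CPM.

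The 20 glycolysis and hypoxia genes had a median of -0.05 (0.02 without high-fat replicate 15), and none was called by edgeR with all libraries. With no overlap 2 lay higher and 3 lower, near the shares of 13.9% and 11.6% over all genes. The higher ones were the hexokinases Hk2 and Hk3, and the lower ones were Bnip3, Gpi1 and Tpi1. Hk2 was at 97.2, 76.6 and 64.4 CPM on the standard diet and at 241, 332 and 316 CPM on the high-fat diet, and Hk3, a hexokinase of myeloid cells, at 6.98, 10.04 and 7.47 CPM and at 38.1, 119 and 112 CPM. Tpi1, triosephosphate isomerase, was at 238, 297 and 292 CPM and at 208, 133 and 118 CPM. These 5 genes were singled out after their values were seen. Aldoa and Pkm, later enzymes of the pathway, overlapped between the diets.

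Within the pericyte and smooth muscle list, Notch3 and Abcc9, mural cell genes singled out after their values were seen, lay higher on the high-fat diet with no overlap (27.3 to 78.8 CPM and 80.8 to 231 CPM, and 38.3 to 52.2 CPM and 52.9 to 117 CPM), opposite in direction to the contractile genes Tagln and Acta2.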
